A study of Mus musculus with 5 samples.

Results

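Rb-/- fibroblasts were compared with Rb+/+ fibroblasts by γH2AX chromatin immunoprecipitation and sequencing (ChIP-seq), with an input library of DNA taken before immunoprecipitation as the common reference. These 3 of the 5 libraries in the series were chosen by genotype label, with earlier results known, and not by any measured value. All were primary mouse embryonic fibroblasts, proliferating at passage 4. Rb+/+ cells carry both working copies of Rb and Rb-/- cells carry none. The labels give neither the construction of the null allele, nor the strain, nor the number of embryos pooled, nor the genotype of the input. The remaining 2 libraries, RbΔL/+ and RbΔL/ΔL, carry an altered Rb allele and appear below only where their values show where Rb-/- or Rb+/+ stood.

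Each genotype has 1 library, so no difference between genotypes could be tested. The intervals below are 95% intervals that cover counting error only, and not variation between cultures of a genotype. The reads carry no molecular identifiers, so copies of 1 molecule cannot be told apart. The intervals may therefore be too narrow even for counting error. The deposited class counts summed to 17180437 in the input, 17896985 in Rb+/+ and 16703500 in Rb-/-, and a count of 0 in these libraries allows a share of up to 1.75e-05%, 1.68e-05% and 1.80e-05%. Coverage over the Rb gene was not analysed here, so the genotype labels were not checked against the data.

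The retinoblastoma protein holds E2F transcription factors in check and so limits entry into S phase. It also binds chromatin partners, among them the condensin II complex named in the title of the series, which shapes and compacts chromosomes. γH2AX is histone H2AX phosphorylated by the kinases that respond to DNA breaks and stalled replication forks. Tandem satellite arrays around mouse centromeres are known as DNA that replication forks pass with difficulty.

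Rb-/- had more of its γH2AX reads in repeats than Rb+/+ had. The repeat lines together held 1934609 counts in the input (11.3%), 1819770 in Rb+/+ (10.2%) and 1837311 in Rb-/-. The Rb-/- share was 1.08 times that of Rb+/+ (1.0797 to 1.0839). Reads of the unique genome made up 89.8% of the Rb+/+ counts and 89.0% of the Rb-/- counts, a decline of 0.83 percentage points. That line accounted for 94.2% of all the share that Rb-/- lacked relative to Rb+/+.

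Satellites were the largest single part of the gain. The Satellite class held 678865 counts in the input (3.95%), 484804 in Rb+/+ (2.71%, 2.70 to 2.72) and 526037 in Rb-/- (3.15%, 3.14 to 3.16). Both ChIP libraries lay below the input, with Rb-/- closer to it. The satellite share of Rb-/- was 1.16 times that of Rb+/+ (1.16 to 1.17), or 44.0 more counts per 10000. RbΔL/+ and RbΔL/ΔL stood at 1.16 and 1.17 times Rb+/+, so the low library of the 4 was Rb+/+. The higher share in Rb-/- made up 49.9% of all the share gained in Rb-/-. LINEs, the autonomous retrotransposons that copy themselves through RNA, made up a further 24.1%. Measured among repeat counts alone, with the unique genome left out, the satellite ratio came to 1.07.

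**Figure D1:**
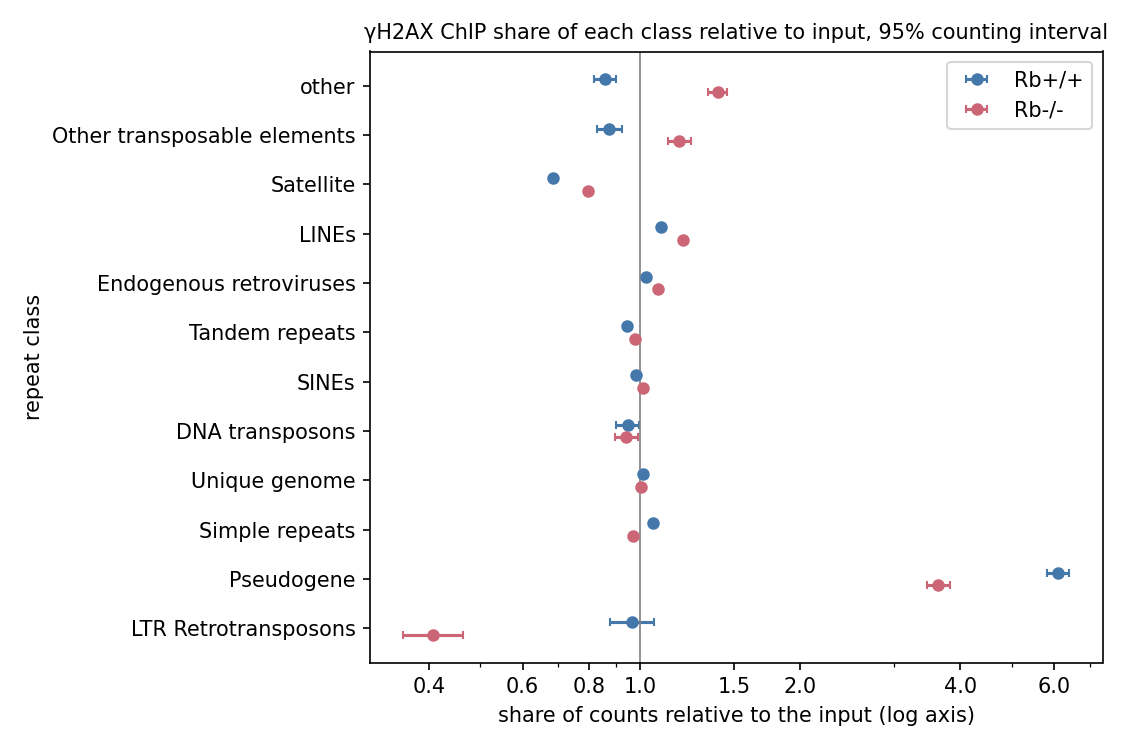
Share of counts in each repeat class divided by the same share in the input, on a log axis, for Rb+/+ (blue) and Rb-/- (red), with 95% counting intervals where they are wider than the point. Classes are ordered by the ratio of Rb-/- to Rb+/+, from the class named other (1.63) at the top to LTR retrotransposons (0.423) at the bottom, and Pseudogene is far above the input in both libraries (6.11 and 3.64).

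Across the 12 classes, the Rb-/- share was higher in 7 and lower in 5, and the interval of the ratio excluded 1 in 11 of them. The median ratio was 1.03. With the median ratio set to 1 the split was 6 higher and 6 lower, and among repeat counts alone it was 4 higher and 7 lower of 11. At least 1.2 times higher in Rb-/- were 2 classes (16.7% of those compared), and at least 1.2 times lower were 2 others (16.7%). These 4 classes are all small, each with fewer counts than SINEs, simple repeats or any of the large classes. The plot of class shares relative to the input shows them at its top and bottom.

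LTR retrotransposons, elements bounded by long terminal repeats that the authors listed apart from endogenous retroviruses, had the lowest ratio. There were 821 counts in the input, 824 in Rb+/+ and 325 in Rb-/-. The other ChIP libraries had 764 (RbΔL/+) and 742 (RbΔL/ΔL), so Rb-/- was the low library. As a share of all counts, RbΔL/+ was 1.21 times Rb+/+ and RbΔL/ΔL was 1.00 times. The Rb-/- share was 0.423 times that of Rb+/+ (0.372 to 0.480). It was 0.407 times the input (0.358 to 0.463), whereas the Rb+/+ interval held the input value (0.963, 0.875 to 1.06).

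The Pseudogene class, whose members the sources used here do not list, had 1961 counts in the input, 12486 in Rb+/+ and 6936 in Rb-/-. Both ChIP libraries stood well above the input, Rb+/+ at 6.11 times (5.83 to 6.41) and Rb-/- at 3.64 times (3.46 to 3.83). The Rb-/- share was 0.595 times that of Rb+/+ (0.578 to 0.613). Rb-/- nevertheless lay above RbΔL/ΔL (2726 counts), so among the 4 genotypes it was the third highest.

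The class that the authors named other held 3666 counts in the input, 3274 in Rb+/+ and 4980 in Rb-/-. Its Rb-/- share was the highest of the 4 ChIP libraries and 1.63 times that of Rb+/+ (1.56 to 1.70). Other transposable elements held 2884 counts in the input, 2626 in Rb+/+ and 3317 in Rb-/-, a ratio of 1.35 (1.29 to 1.42). In both classes Rb+/+ was the lowest of the 4 genotypes and below the input, while Rb-/- was above it.

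The abundant interspersed repeats differed less. LINEs numbered 335363 in the input, 382167 in Rb+/+ and 392209 in Rb-/-. Their share was 2.14% in Rb+/+ and 2.35% in Rb-/-, a ratio of 1.0996 (1.095 to 1.105), and the value among repeat counts alone was 1.02. Endogenous retroviruses, remnants of viral genomes in the germ line, numbered 388771 in Rb+/+ and 381945 in Rb-/-. Their ratio was 1.05 (1.05 to 1.06), and it turned to 0.973 among repeat counts alone.

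SINEs, the short elements that depend on LINE proteins to move, had 69454 counts in Rb+/+ and 66782 in Rb-/-. The ratio of 1.03 (1.02 to 1.04) was on the other side of 1 among repeat counts alone (0.952) and with the median class ratio set to 1 (0.997). LINE reads outnumbered SINE reads by a factor of 5.87 in Rb-/-, 5.50 in Rb+/+ and 4.93 in the input. On this measure, which involves no total, Rb-/- had the highest ratio of the 3 libraries.

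Tandem repeats had 427842 counts in Rb+/+ and 413877 in Rb-/-. The ratio was 1.04 (1.03 to 1.04) over all counts and 0.958 among repeat counts. Simple repeats, short motifs repeated head to tail, had 44374 and 37983 counts, and here Rb-/- was lower (0.917, 0.905 to 0.930). DNA transposons, which move without an RNA copy and are long inactive in mice, had 3148 and 2920 counts. Their interval held 1 over all counts (0.994, 0.945 to 1.05), and among repeat counts alone Rb-/- was lower (0.919, 0.874 to 0.966).

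Of the 13 satellite families counted by the authors, 7 had more than 3 counts in either genotype. The Rb-/- share was higher in 4 and lower in 3, and the interval excluded 1 in all 7. At least 1.2 times higher were SATMIN and ZP3AR (28.6% of the families compared), and MurSAT1 was at least 1.2 times lower (14.3%). The remaining 6 had 0 counts in Rb-/- and at most 1 in Rb+/+ (ZP3AR_MM, TAR1, SVA2 and the 3 SQR families).

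GSAT_MM, the major satellite that forms pericentromeric heterochromatin, carried 93.0% of the satellite gain. It had 640132 counts in the input, 443992 in Rb+/+ and 482806 in Rb-/-. Its share was 2.48% in Rb+/+ and 2.89% in Rb-/-, a ratio of 1.17 (1.16 to 1.17), beside 1.17 in RbΔL/+ and 1.201 in RbΔL/ΔL. Within the satellite class its share was almost the same in the 2 genotypes, 91.6% and 91.8%, a ratio of 1.00. The satellites without GSAT_MM also had a larger share in Rb-/- (1.13, 1.12 to 1.15).

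SATMIN, the minor satellite on which the mouse kinetochore is built, had 9038 counts in the input, 8279 in Rb+/+ and 9937 in Rb-/-. The Rb-/- share was 1.29 times that of Rb+/+ (1.25 to 1.32) and remained above it within the satellite class (1.11, 1.07 to 1.14). Over all counts, Rb-/- was the only ChIP library of the 4 with a SATMIN share above the input beyond counting error (1.13, 1.099 to 1.16). Within the satellite class all 4 lay above the input beyond counting error, Rb+/+ at 1.28 times and Rb-/- at 1.42 times. There were 70.8 GSAT_MM reads per SATMIN read in the input, 53.6 in Rb+/+ and 48.6 in Rb-/-. The RbΔL libraries lay between Rb+/+ and the input, at 56.9 and 59.0, so Rb-/- had the most minor relative to major satellite.

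**Figure D2:**
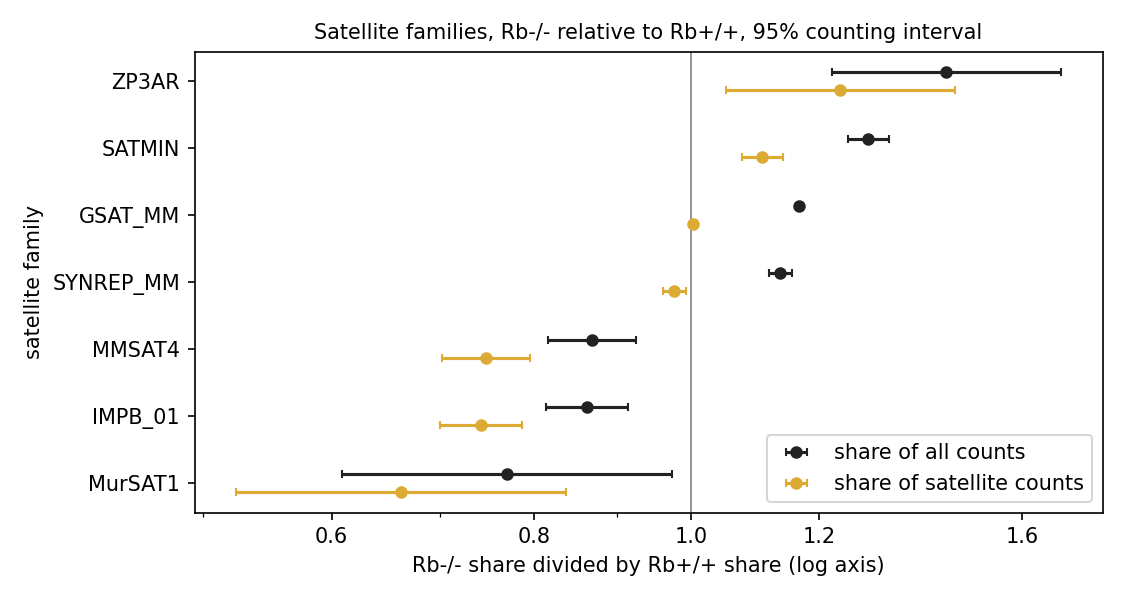
Rb-/- share divided by Rb+/+ share for the 7 satellite families with enough counts, on a log axis, as a share of all counts (black) and of satellite counts (yellow), with 95% counting intervals. GSAT_MM moves from 1.17 to 1.00 and SYNREP_MM from 1.14 to 0.976 between the scales, whereas SATMIN and ZP3AR stay above 1 and MMSAT4, IMPB_01 and MurSAT1 stay below it.

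SYNREP_MM had 25142 counts in the input, 27395 in Rb+/+ and 29026 in Rb-/-. Its ratio was 1.14 (1.12 to 1.15) over all counts and 0.976 within the satellite class. ZP3AR had 475, 252 and 338 counts in the same order, so Rb-/- lay between Rb+/+ and the input, at 1.44 times Rb+/+ (1.22 to 1.69). MMSAT4 had 1542, 2205 and 1788 counts and was lower in Rb-/- (0.869, 0.816 to 0.925), although above the input in both.

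IMPB_01 had 2352, 2512 and 2022 counts and was also lower in Rb-/- (0.862, 0.813 to 0.914). MurSAT1 had 183, 167 and 120 counts, the fewest of the 7, and a ratio of 0.770 (0.609 to 0.973). Over all counts, Rb-/- thus was the lowest of the 4 genotypes for IMPB_01 and MurSAT1 and the highest for SATMIN and SYNREP_MM. The plot of family ratios shows that the choice of total decides the side of 1 for SYNREP_MM only.

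The authors' peak lists asked where in the mapped genome γH2AX reads were concentrated. On the numbered autosomes Rb+/+ had 3609 peaks and Rb-/- had 1546, which is 0.428 times as many. They covered 1.44 Mb and 0.565 Mb. Peaks in both lists were short, with a median width of 391 bp in Rb+/+ (quartiles 285 and 502) and 338 bp in Rb-/- (244 and 474). The median distance between neighbouring peaks was 446 kb in Rb+/+ and 1044 kb in Rb-/-. Only 18 and 16 peaks reached 700 bp.

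Over each list as a whole, narrower peaks tended to have higher scores, although the 10 highest-scoring peaks of each list were all wider than its median. Score and width were correlated across peaks with Spearman's rho of -0.775 in Rb+/+ (3609 peaks) and -0.806 in Rb-/- (1546 peaks). The peaks of a list share a library and are not independent. Scores took few values. The 4 most frequent scores belonged to 1159 peaks of Rb+/+ (32.1%) and to 558 of Rb-/- (36.1%).

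These repeated scores lay on a regular scale. In Rb+/+ the most frequent were 72.03, 90.0, 108.6 and 127.9. In Rb-/- they were 82.8, 103.0, 123.8 and 145.2. If a score is a Poisson probability p written as -10 log10 p, these are the chances of at least 5, 6, 7 and 8 reads where 0.0960 reads are expected in Rb+/+ and 0.0581 in Rb-/-. The expected number was solved from each list's most frequent score. Peaks with that score, 402 in Rb+/+ and 180 in Rb-/-, therefore lie on a step in any such reading. Within 0.05 score units of a step lay 35.3% of the Rb+/+ peaks and 43.3% of the Rb-/- peaks, these included. The next best reading placed 16.6% and 12.7%. The best reading was chosen after the scores were seen. If the caller scored the chance of more than the observed number, each step stands for 1 read fewer.

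On this reading, a given number of reads carried a higher score in Rb-/- than in Rb+/+. The expected number in Rb-/- would be 0.605 times that in Rb+/+, while its total count was 0.933 times as large. A score of 100 would fall above step 6 in Rb+/+ and below step 6 in Rb-/-. With that limit there were 786 peaks in Rb+/+ and 719 in Rb-/-. Counted from step 8 upward on each list's own scale, there were 362 in Rb+/+ and 361 in Rb-/-. That limit was set after the data were seen, and the counts depend on it. From step 6 upward there were 1163 in Rb+/+ and 709 in Rb-/-, and from step 7 upward 696 and 537. From step 9 upward there were 142 and 158.

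**Figure D3:**
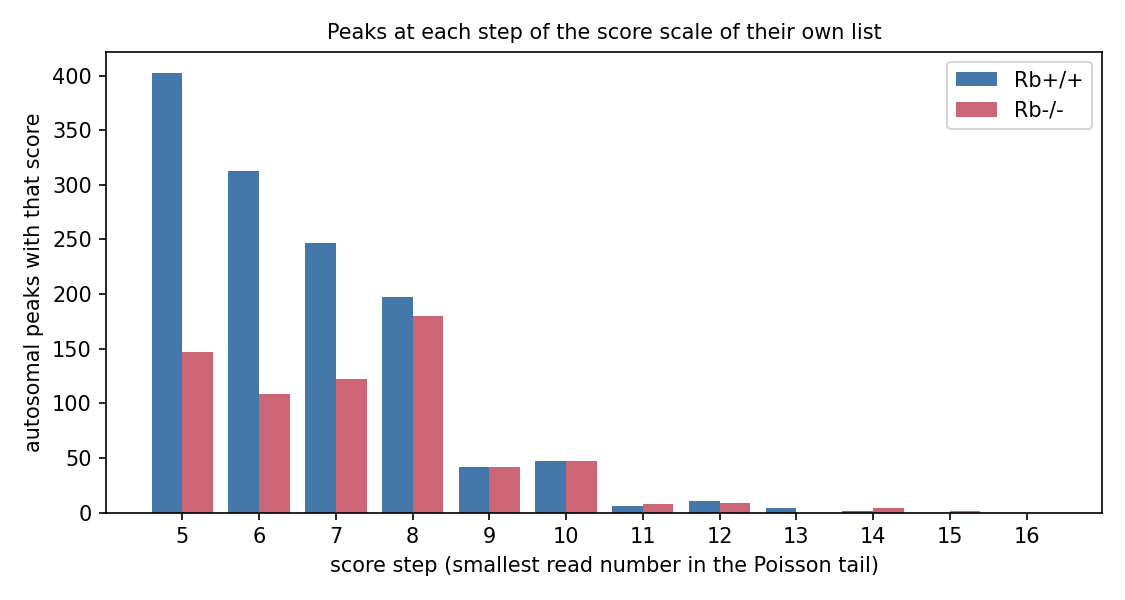
Number of autosomal peaks whose score lies within 0.05 of each step of the Poisson scale of their own list, for Rb+/+ (blue) and Rb-/- (red). The bars differ at steps 5 to 7 (962 against 378 peaks) and are close at steps 8 to 10 (286 against 269).

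Among peaks on a step, the lists differed at the low steps. Rb+/+ had 402, 313 and 247 peaks at steps 5, 6 and 7, and Rb-/- had 147, 109 and 122. Together these are 962 and 378 peaks, a ratio of 0.393. At steps 8, 9 and 10 the lists had 197, 42 and 47 against 180, 42 and 47 peaks, a ratio of 0.941. From step 11 to step 16 each had 22. Peaks that lay on no step, the larger part of both lists, were also fewer in Rb-/- (876 against 2336, a ratio of 0.375).

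Widths on a step were alike in both lists. At step 5 the median width was 354.5 bp in Rb+/+ and 360 bp in Rb-/-, and at step 8 it was 215 and 208 bp. From step 8 upward over all scores the medians were 218 and 216 bp. The narrower median of the whole Rb-/- list did not hold under other limits. With a score of at least 100 the medians were 236 bp in Rb+/+ and 238 bp in Rb-/-, and among the 1546 highest-scoring peaks of each list Rb-/- was wider (338 against 271 bp).

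Few peaks were found at the same place in both lists. Of the Rb-/- peaks, 26 overlapped an Rb+/+ peak by at least 1 bp (1.68%, 1.101 to 2.45). Of the Rb+/+ peaks, 24 overlapped an Rb-/- peak (0.665%, 0.427 to 0.988). The lists had 20215 bp in common, which is 3.58% of the sequence covered in Rb-/- and 1.41% of that in Rb+/+. The median distance from an Rb-/- peak to the nearest Rb+/+ peak was 209 kb, and to the nearest RbΔL/+ peak, in a list of 3691, it was 213 kb.

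The strongest peaks were common to both lists, although many common peaks were not strong. The 10 highest-scoring peaks of each list all overlapped the other list. Among ranks 11 to 25 this was so for 2 of 15 in Rb-/- and 3 of 15 in Rb+/+, and among ranks 26 to 50 for none of 25 in either. Below rank 200 it was so for 10 of 1346 in Rb-/- (0.743%) and 8 of 3409 in Rb+/+ (0.235%). Common peaks were also wider, with a median of 601 bp in Rb-/- against 335.5 bp for the rest, and 621 against 390 bp in Rb+/+.

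**Figure D4:**
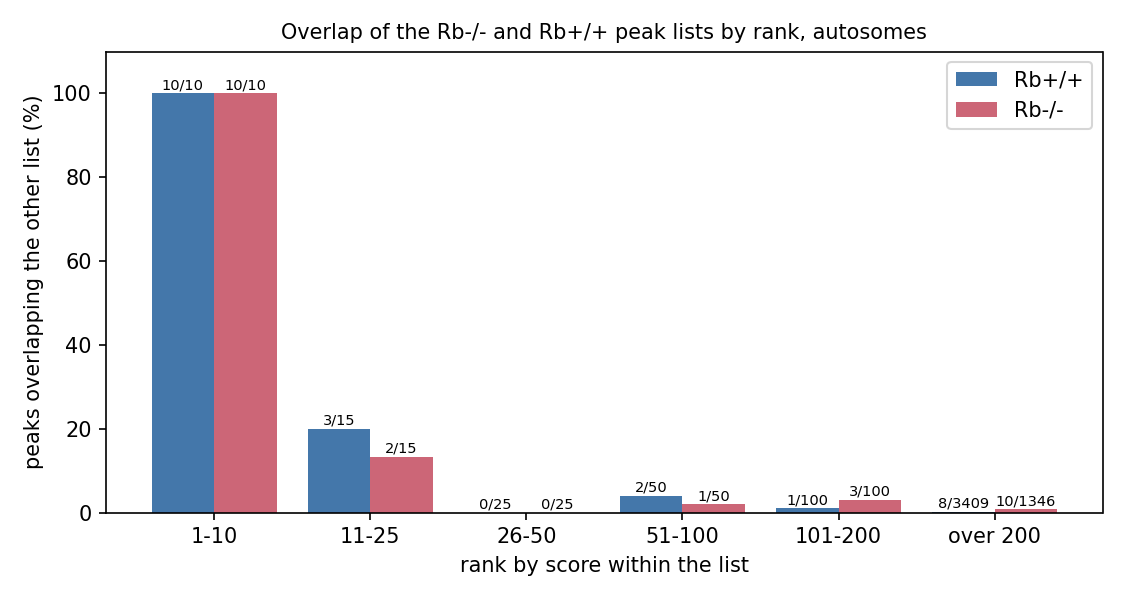
Percentage of autosomal peaks that overlap the other list by at least 1 bp, by score rank within the list, for Rb+/+ (blue) and Rb-/- (red), with the numbers of peaks above the bars. All 10 of the top 10 overlap in both lists, and beyond rank 25 no bin exceeds 2 of 50 in Rb+/+ or 3 of 100 in Rb-/-.

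The common peaks formed 24 regions, of which 14 lay in 3 clustered sites on chromosomes 2, 9 and 17. Peaks up to 10 kb apart were joined for this, and a cluster had at least 3 peaks of 1 list. A further 3 groups of this size, on chromosomes 1, 4 and 7, held 3 Rb+/+ peaks each and 0 Rb-/- peaks. Input reads at these sites were not analysed here, so their place in a library without antibody is unknown. Gene annotation of build mm9 was not used here, and positions are given in mm9 coordinates.

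The cluster on chromosome 2 spans 98502258 to 98507611, 5.35 kb, with 4 peaks in each list. Peaks covered 62.0% of it in Rb+/+ and 64.0% in Rb-/-. It held ranks 1, 2 and 3 in Rb-/- and ranks 1, 3 and 4 in Rb+/+. The top peak had a score of 3100 in both lists, a value no peak exceeded. Its start differed by 13 bp between the lists and its end by 4 bp.

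The cluster on chromosome 9 lies at the centromeric end of the assembled chromosome, at 2999906 to 3036595, and is 36.7 kb long. It held 12 peaks in Rb+/+ and 11 in Rb-/-, 9 of each in common. They covered 9888 bp in Rb+/+ and 11419 bp in Rb-/-, so that Rb-/- covered slightly more although its list is shorter. The highest peak, at 3023060 to 3024847, had rank 5 in Rb+/+ (score 1266.36) and rank 4 in Rb-/- (score 1316.29).

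Of the 3 clustered sites with peaks in both lists, the site on chromosome 17, at 39979826 to 39985941, differed most in best rank. From background knowledge this stretch of mm9 is where the 45S ribosomal RNA precursor Rn45s is placed, which was not checked against an annotation here. In Rb+/+ it was 1 peak of 6116 bp, the widest of the list, with rank 2 and a score of 2233.31. In Rb-/- it was 3 peaks of 2245, 1419 and 1539 bp, with scores of 112.8, 147.3 and 161.9 and ranks of 585, 180 and 168.

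The Rb-/- peaks still covered 85.1% of the Rb+/+ peak. The chromosome 2 and chromosome 9 sites kept single-digit best ranks in both lists, whereas the chromosome 17 site went from rank 2 in Rb+/+ to a best rank of 168 in Rb-/-. In RbΔL/+ the site was 2 peaks with scores of 504.4 and 2107.06 and a best rank of 3. In RbΔL/ΔL it was also split, into 2 peaks that covered 85.9% of the Rb+/+ peak, with scores of 73.7 and 151.91 and ranks of 190 and 11. A rank depends on the other peaks of its list, and scores of different libraries are not on 1 scale, so this is a description of 2 lists.

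Outside the clusters 10 common regions remained. The strongest were on chromosome 6 at 103598949 to 103599425 (ranks 5 in Rb-/- and 6 in Rb+/+), on chromosome 9 at 35112647 to 35113256 (ranks 6 and 7) and on chromosome 12 at 3109703 to 3110212 (ranks 10 and 9). The region on chromosome 12 is also near a centromeric end. On chromosome 11, at 108872876 to 108873529, the Rb+/+ peak was 654 bp wide and ranked 11, and the Rb-/- peak was 292 bp wide and ranked 414. The others were single narrow sites on chromosomes 3, 4 (70039061 to 70039429), 13, 16, 17 (36368062 to 36368693) and 18, and none of them ranked above 90 in either list.

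Of the 24 common regions, 12 also held a peak in both RbΔL lists and 7 in RbΔL/+ only. The other 5 were found in Rb+/+ and Rb-/- alone. They lie on chromosome 2 (98503792 to 98504413), chromosome 3 (6585604 to 6585840), chromosome 9 (3020287 to 3020683), chromosome 13 (77578011 to 77578376) and chromosome 16 (58113276 to 58113920). Their Rb-/- scores ran from 72.57 to 170.55, so none was among the strong sites.

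The strongest peaks of a single list looked alike in both genotypes. In Rb-/- they were led by chromosome 6 at 13464910 to 13465121 (212 bp, score 306.8). Next came 4 peaks with the same score of 282.68, found on chromosome 10 (63509499 to 63509708), chromosome 2 (22502764 to 22502969) and chromosome 9 (28098079 to 28098288, and 40068461 to 40068667). Their widths were 206 to 210 bp, and their scores are steps 15 and 14 of the Rb-/- scale. In Rb+/+ the leading ones, on chromosomes 7, 2, 1 and 10, were 208 to 228 bp wide with scores of 230.64 to 252.28.

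Every autosome had fewer peaks in Rb-/- than in Rb+/+. Pooled over autosomes, 30.0% of the peaks of both lists came from Rb-/- (28.7 to 31.3). The share was lowest on chromosome 18, with 40 peaks against 151 (20.9%, 15.4 to 27.4). It was highest on chromosome 17, with 61 against 110 (35.7%, 28.5 to 43.3). The intervals of 17 of the 19 autosomes held the pooled share, and those of chromosomes 15 and 18 lay below it.

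**Figure D5:**
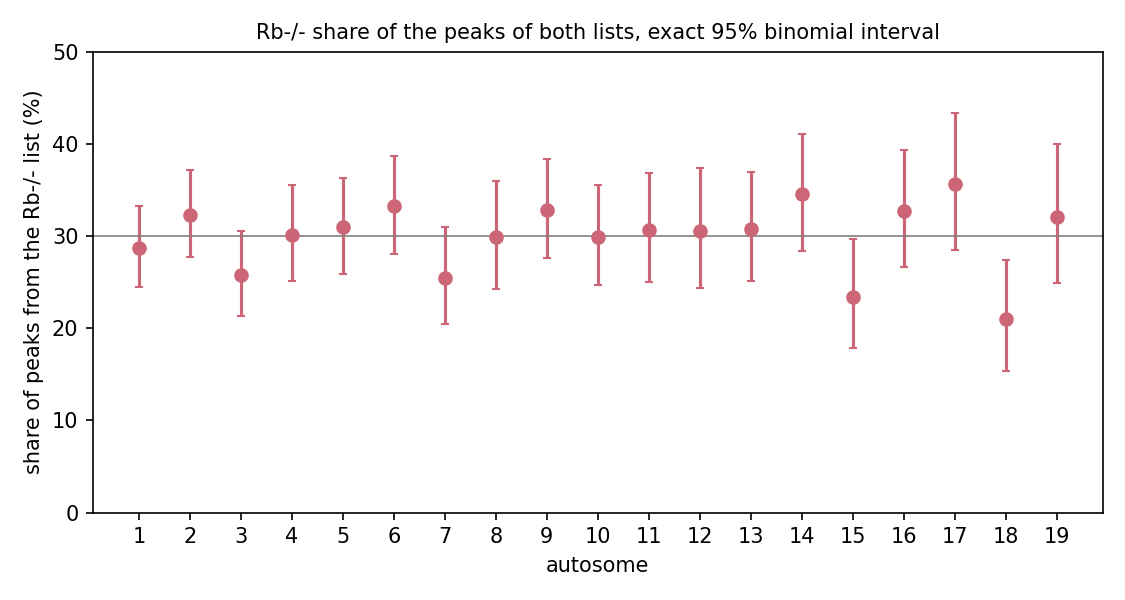
Share of the peaks of both lists that came from Rb-/-, for each autosome, with exact 95% binomial intervals, and the share over all autosomes (30.0%) as a grey line. The points run from 20.9% on chromosome 18 to 35.7% on chromosome 17, and only chromosomes 15 and 18 have intervals that leave out the line.

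Mouse centromeres lie at the low-coordinate end of each autosome, and peaks were counted there. The first 10 Mb held 196 Rb+/+ peaks (5.43%, 4.71 to 6.22) and 90 Rb-/- peaks (5.82%, 4.71 to 7.11). The intervals overlap widely, so no difference was detectable at this limit. In the first 3.1 Mb the shares were 0.333% in Rb+/+ (12 peaks, 0.172 to 0.580) and 0.841% in Rb-/- (13 peaks, 0.448 to 1.43). All 12 of these Rb+/+ peaks and 11 of the 13 Rb-/- peaks belong to the cluster on chromosome 9. Without the clustered sites the shares of the first 10 Mb were 5.12% and 5.17%. The satellite shares given earlier were counted over repeat reads and not over peaks, so the measures are separate.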

How the data were processed

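The authors deposited whole-number read counts for 12 repeat classes and 13 satellite families in each library, and, for each ChIP library, a list of peaks with a score. Per the submitters' processing notes, Bowtie 1.0, MACS 1.4.2 and mm9 were used, with no role stated. Not given in the sources used here are the counting of reads that fit several repeat copies, any removal of duplicates, and the control and threshold of peak calling. Each affects class shares, scores or both. Scores are the authors' own and were used within a list. Lists were called per library, and each was taken as that of the sample it was deposited with.

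Counts were divided by the library's total. Shares were given exact (Clopper-Pearson) intervals, and ratios counting intervals on the log ratio. No ratio was formed where both genotypes had at most 3 counts. On numbered autosomes, peaks sharing at least 1 bp were taken as overlapping. Named items were every class, every family with more than 3 counts, the 10 highest peaks of each list, every overlapping region (inside clusters mostly by the cluster's extent, and on chromosome 18 without its position), the 5 highest peaks found in 1 list only, and the autosomes at the extremes. Groups, items and limits were chosen with earlier results of these data known. Alternatives were other totals, a median class ratio of 1, other fold limits, a score of at least 100, merging within 1000 bp, overlap of 50% of both peaks or within 1000 bp, equal numbers of peaks, all chromosomes, and 5 or 20 Mb. Limits from step 8 and the omission of clustered sites were added after the data were seen. The work used scipy 1.17.1, pandas 2.3.3 and numpy 2.4.6 under Python 3.11.15, with plots by matplotlib 3.10.9, and the overlap, interval and step computations were tested on simulated data. No sequence is printed, since no mm9 sequence was used here.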

Additional observations from a re-analysis of the deposited data

Results flagged for a closer look

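In 4 cases Rb+/+ and Rb-/- lay on opposite sides of the input as shares of all counts, each beyond counting error. With a single library of each genotype, the difference was not tested. Other transposable elements were at 0.874 of the input in Rb+/+ and 1.18 in Rb-/-. The class named other was at 0.857 and 1.397. SATMIN, the minor satellite, was at 0.879 and 1.13. Simple repeats went the other way, at 1.06 in Rb+/+ and 0.970 in Rb-/-. Among repeat counts alone, only the class named other of these classes kept this pattern, at 0.949 and 1.43. There the Rb+/+ interval of other transposable elements (0.918 to 1.02) and the Rb-/- interval of simple repeats (0.979 to 1.01) held 1. Within the satellite class SATMIN was above the input in both genotypes (1.28 and 1.42). No further total, such as the unique genome, was set against the input.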

How the results depend on the processing

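The satellite ratio of Rb-/- to Rb+/+ (1.16) stayed above 1 under every total tried, at 1.07 among repeat counts, 1.17 without the satellite class in the total, 1.17 against the unique genome and 1.13 with the median class ratio set to 1. GSAT_MM (1.17) came to 1.00 within the satellite class and 1.18 against the unique genome. Among repeat counts, endogenous retroviruses (0.973), SINEs (0.952) and tandem repeats (0.958) turned below 1, as did SINEs with the median set to 1 (0.997) and SYNREP_MM within the satellite class (0.976). Of the satellite families, 3 were past a fold of 1.2, 7 past 1.1 and 0 past 1.5, with no test behind any of these counts.

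The ratio of peak numbers (0.428) was 0.915 at a score of at least 100 and 0.997 from step 8 upward. From step 7 upward it was 0.772, and from step 9 upward 1.11. The median width of Rb-/- minus that of Rb+/+ (-53.0 bp) became 2 bp at a score of at least 100, 67 bp for equal numbers of peaks and -2 bp from step 8 upward. The 26 overlapping Rb-/- peaks (1.68% of the list) became 14 from step 8 upward (3.88% of 361). Without the clustered sites they became 10 (0.654% of 1528). The cause of these changes was not tested. The other alternatives for peak number gave ratios of 0.423 to 0.427. Overlapping Rb-/- peaks numbered 19 at a score of at least 100 (2.64%) and 21 for overlap of 50% of both peaks (1.36%). There were 23 for equal numbers of peaks (1.49%), 28 over all chromosomes (1.72%) and 35 within 1000 bp (2.26%). The overlapping share of Rb+/+ peaks (0.665%) ran from 0.582% to 2.16% under these. It was 3.59% from step 8 upward and 0.278% without the clustered sites. For the first 10 Mb, the Rb-/- share was higher under each limit, by 0.0477 (without the clustered sites) to 1.19 percentage points (first 20 Mb). These limits share peaks, and the intervals overlapped wherever they were computed. At 20 Mb they were 11.3 to 13.4 in Rb+/+ and 11.9 to 15.3 in Rb-/-. The classes past a fold of 1.2 (4) were 5 at 1.1 and 3 at 1.5. No paired analysis was possible because each genotype has 1 library, and for the same reason none could be left out.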

Other observations

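On the X chromosome, which the comparison of autosomes leaves out, 2 of the 86 Rb-/- peaks overlapped 2 of the 248 Rb+/+ peaks. The first lies at 139917432 to 139917780 and had a width of 349 bp and a score of 172.08 in Rb-/-, against 337 bp and 213.86 in Rb+/+. The second, at 166438436 to 166438978, had 337 bp and 62.31 against 519 bp and 81.74.

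The score steps were less clear in the RbΔL lists. In RbΔL/+ the best reading gave 0.243 expected reads and placed 14.8% of 3691 autosomal peaks on a step, against 7.04% for the next best. In RbΔL/ΔL the best reading placed 3.47% of 1874 peaks on a step and the next best 3.20%, and no scale was assigned to that list.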
